A study of Homo sapiens with 6 samples.

Results

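The circadian clock genes described here are the period genes PER1, PER2 and PER3, the cryptochrome genes CRY1 and CRY2, the REV-ERB genes NR1D1 and NR1D2, the D-box factor gene DBP, the repressor gene BHLHE40 and the activator gene CLOCK. They were chosen by symbol, with earlier results of these data known, and all 10 were found among the 24462 symbols counted. RNA came from H460, an established human lung cancer cell line, and was read from the polyadenylated 3′ end of transcripts. Cells deprived of glutamine for 24 h in a medium with dialyzed serum (depleted, 3 libraries) were compared with glutamine-replete cells (replete, 3 libraries). Neither group carries a genetic change made for the study, and how the replete cells were fed during those 24 h is not described in the labels. They give no clock time of harvest and no synchronising step, so with 1 time point a change in level and a shift in phase cannot be told apart.

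The mammalian clock is a transcriptional feedback loop. CLOCK, or its relative NPAS2, pairs with BMAL1 (the product of ARNTL) and binds E-boxes in the PER, CRY, REV-ERB, DBP and BHLHE40 genes. The PER and CRY proteins then repress CLOCK and BMAL1, the REV-ERB repressors and ROR activators compete for ROR elements in the ARNTL gene, and DBP and NFIL3 act in opposition on D-boxes. PER1 and PER2 are also known for a fast response to serum, hormones and stress, in peripheral cells and cell lines as well as in the brain.

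The promoters are shown so that the letters of the clock's own elements can be looked for in them. The motifs were chosen after values were seen, and a link between motifs and changes in level was not tested. RefSeq start sites on GRCh38.p14 gave 14 windows of 300 bases (250 before to 50 after a start) for all 10 members, and the 2 windows of PER3 overlap. Motifs were searched on both strands. The E-box CACGTG was in 3 of the 14 windows and in 7.26% of all 35116 promoter windows, and the related letters CACGTT in 5 of 14 and in 5.34%. The D-box TTATGNAA was in 3 of 14 and in 3.3% of all windows, and the ROR element letters TAGGTCA or TGGGTCA in 3 of 14 and in 5.69%. The cyclic AMP response element TGACGTCA, in 1.85% of all windows, and the ATF4 and C/EBP element TGATGNAA, in 3.62%, were in 0 of the 14. The median GC content was 70.8% in the member windows and 58.7% in all windows. Stretches upstream of the start that hold most of these matches follow, 5′ to 3′ along the gene, with the motif matches in capitals. The ROR element of CRY2 is not shown. The PER1 D-box, CRY1, CRY2 and BHLHE40 stretches overlap an annotated exon of the same gene in GENCODE 29.
PER1, E-box, chr17:8152560-8152589, minus strand: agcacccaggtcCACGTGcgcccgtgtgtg
PER1, D-box, chr17:8152416-8152445, minus strand: agtgcccggcaTTATGCAAcccgcctcccc
PER2, CACGTT, chr2:238288781-238288826, minus strand: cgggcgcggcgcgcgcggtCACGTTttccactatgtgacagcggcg
PER3, D-box, chr1:7784095-7784145, plus strand: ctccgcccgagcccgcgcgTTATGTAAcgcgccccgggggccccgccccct
CRY1, CACGTT on the other strand, chr12:107093621-107093650, minus strand: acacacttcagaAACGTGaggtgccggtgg
CRY2, CACGTT on the other strand, chr11:45847276-45847305, plus strand: cacatggtaggAACGTGagggggcgggcct
BHLHE40, E-box, chr3:4979187-4979216, plus strand: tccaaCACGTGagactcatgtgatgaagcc
NR1D1, CACGTT on the other strand, chr17:40100730-40100780, minus strand: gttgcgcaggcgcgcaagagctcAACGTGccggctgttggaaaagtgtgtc
NR1D2, D-box, ROR element and a pair of E-boxes, chr3:23945915-23946035, plus strand: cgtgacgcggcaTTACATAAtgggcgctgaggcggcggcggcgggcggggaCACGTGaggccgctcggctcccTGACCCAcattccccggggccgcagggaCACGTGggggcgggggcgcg
CLOCK, ROR element and CACGTT, chr4:55546098-55546158, minus strand: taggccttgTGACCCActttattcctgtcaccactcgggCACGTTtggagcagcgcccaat
CLOCK held such letters in the window of the stretch shown and none in its other window. The DBP window held none of the motifs searched.

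The libraries held 7550849 to 10914899 counts, and CPM, the share of a library's counts scaled to a common total, was the unit of level. A count of 0 allows up to 3 counts, or 0.275 to 0.397 CPM. This limit and the counting intervals below cover counting error only. Nothing in the labels ties each library to a culture of its own. The p-values therefore rest on spread that may be only technical. Depleted replicate 2 stood apart from the other depleted libraries, at a chi-square of 19.4 and 11.7 per degree of freedom against them, where all other pairs within a group lay between 1.51 and 3.92. Of 5 epithelial markers, KRT8, KRT18 and KRT19 were abundant, whereas EPCAM and CDH1 were at most 0.505 and 0.126 CPM, and the summed level was 761 to 881 CPM in depleted and 2067 to 2092 CPM in replete libraries. Of 5 blood markers 1 (CD68) fell and none rose among 1 tested, with sums of 4.38 to 6.07 and 7.31 to 10.4 CPM, and 3 of 5 endothelial markers had no count in any library. Of 5 fibroblast markers, COL3A1 and PDGFRB rose among 4 tested, with sums of 34.8 to 110.4 CPM in depleted and 18.5 to 32.0 CPM in replete libraries. The highest fibroblast sum lay in depleted replicate 3, and the part of these markers in the results was not tested. In bulk RNA, a change in the cells present and a change in RNA per cell cannot be told apart.

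Glutamine withdrawal was accompanied by a steep rise of PER1 and PER2, period genes in the negative limb of the clock. PER1, the period gene best known as an immediate responder, read 578, 723 and 602 CPM in the depleted libraries and 28.7, 37.1 and 31.9 CPM in the replete libraries. The lowest depleted library was far above the highest replete one. The mean was 634 ± 77.8 CPM (SD, n = 3) against 32.6 ± 4.26 CPM (SD, n = 3), a log2 fold change of 4.51 (SE 0.12) or 22.8-fold. The 95% interval was 18.9 to 27.5, with a Benjamini-Hochberg adjusted p = 2.46e-11 by the quasi-likelihood method of edgeR. Fold changes are depleted over replete after trimmed-mean (TMM) scaling, whereas CPM uses library totals. PER1 ranked 147 of 12739 tested genes from the highest log2 fold change. PER2, the period protein most studied as a limiting repressor of CLOCK and BMAL1, read 84.0, 81.9 and 81.8 CPM in depleted and 5.98, 5.43 and 5.70 CPM in replete libraries. The depleted libraries were nearly level with each other and the groups did not overlap. PER2 rose by 4.08 on the log2 scale (SE 0.11, edgeR adjusted p = 4.38e-12) or 16.9-fold, and ranked 195.

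PER3, the period gene thought least necessary for rhythm, was near the detection limit. Its counts were 13, 22 and 20 in depleted and 5, 9 and 1 in replete libraries, or 1.19, 2.52 and 2.31 against 0.554, 1.14 and 0.132 CPM. The lowest depleted library lay just above the highest replete one. PER3 passed the count filter only through its depleted libraries, and it rose by 1.88 on the log2 scale (SE 0.51, edgeR adjusted p = 0.00448). The ratio of summed counts per library total was 3.17, with an exact 95% counting interval of 1.77 to 6.05. Without replete replicate 2 the log2 fold change was 2.61, and without replete replicate 3 it was 1.45.

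The cryptochromes, which partner the PER proteins and carry much of the repression, rose as well, with little spread between libraries. CRY1 read 140.0, 133 and 140.4 CPM in depleted and 37.7, 32.2 and 36.3 CPM in replete libraries. Both groups were tight and lay well apart. CRY1 rose by 2.19 on the log2 scale (SE 0.09, edgeR adjusted p = 1.28e-10), or 4.56-fold. CRY2 read 19.0, 19.5 and 18.6 CPM in depleted and 3.66, 3.66 and 3.44 CPM in replete libraries. It rose by 2.63 (SE 0.15, edgeR adjusted p = 3.95e-09), or 6.17-fold, again with no overlap between groups.

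BHLHE40 (DEC1), which competes with CLOCK and BMAL1 at E-boxes and also answers to hypoxia and stress, read 98.4, 59.4 and 80.4 CPM in depleted and 30.3, 28.4 and 29.5 CPM in replete libraries. The depleted libraries spread widely, with replicate 2 the lowest, but all were above the replete libraries. BHLHE40 rose by 1.66 (SE 0.16, edgeR adjusted p = 1.81e-06), or 3.16-fold. Its exons overlap those of BHLHE40-AS1 on the other strand by 4 bases in GENCODE 29. The antisense gene had 1.01 to 1.15 CPM in depleted and 0.111 to 0.397 CPM in replete libraries.

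**Figure D1:**
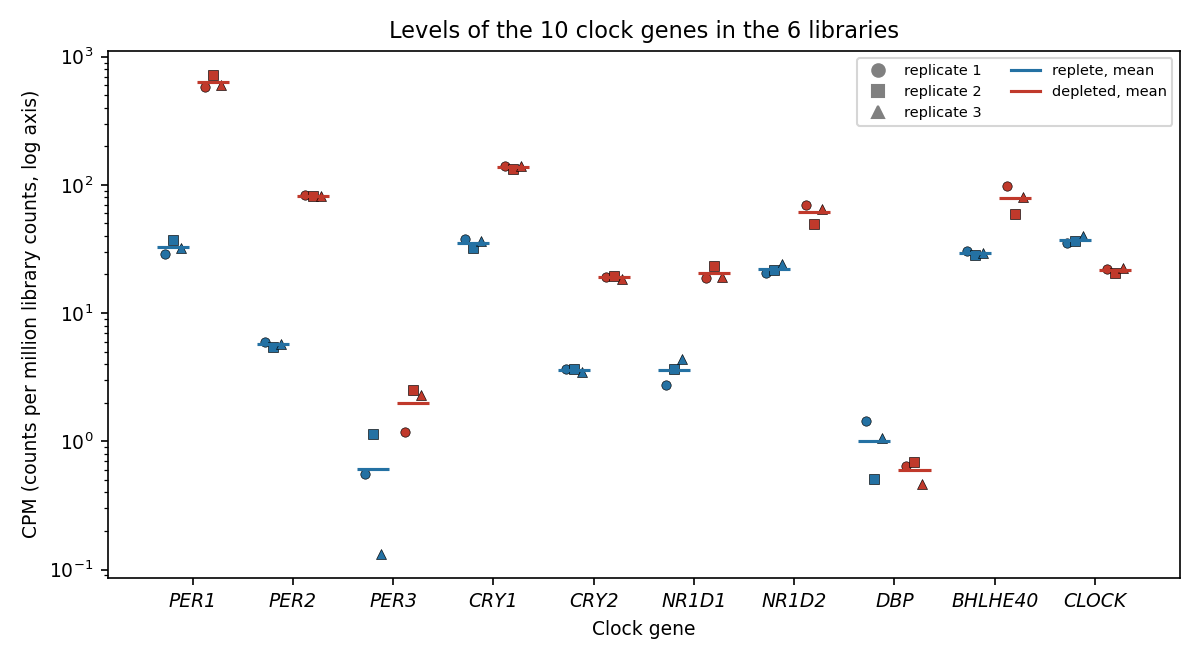
Levels of the 10 clock genes in CPM on a log axis, with 1 point per library (shape gives the replicate number) and a bar for each group mean, replete in blue and depleted in red. PER1 moved from 28.7 to 37.1 CPM in replete cells to 578 to 723 CPM in depleted cells, CLOCK lay lower in every depleted library, and the points of DBP overlap.

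The REV-ERB genes, whose products are heme-binding repressors of ARNTL, also rose. NR1D1 (REV-ERBα) read 18.9, 23.3 and 19.3 CPM in depleted and 2.77, 3.66 and 4.37 CPM in replete libraries, with no overlap. It rose by 2.74 on the log2 scale (SE 0.19, edgeR adjusted p = 1.96e-08), or 6.68-fold. Exons of NR1D1 overlap those of the thyroid hormone receptor gene THRA on the other strand by up to 263 bases. No source states a stranded count, so either gene may hold reads of the other. THRA read 17.1, 18.7 and 14.4 CPM in depleted and 15.4, 14.6 and 9.67 CPM in replete libraries, and these ranges overlap. Its log2 fold change was 0.56 (edgeR adjusted p = 0.0106), and it did not pass with library totals alone (adjusted p = 0.0991) or without replete replicate 3 (0.0604). NR1D2 (REV-ERBβ), which has no overlapping exon in the annotation, read 69.4, 49.6 and 65.3 CPM in depleted and 20.7, 21.7 and 24.2 CPM in replete libraries. It rose by 1.70 (SE 0.13, edgeR adjusted p = 6.32e-08), or 3.24-fold, and depleted replicate 2 was again the lowest of its group.

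CLOCK, the histone acetyltransferase subunit of the activator, was the only one of the 9 tested members to fall. It read 22.0, 20.4 and 22.6 CPM in depleted and 35.4, 36.4 and 40.0 CPM in replete libraries, with no overlap. The log2 fold change was −0.55 (SE 0.10, 95% interval −0.78 to −0.33, edgeR adjusted p = 0.000308). CLOCK exons overlap those of TMEM165 on the other strand by up to 76 bases, and TMEM165 also fell, from 21.7 ± 2.57 to 8.59 ± 1.07 CPM (SD, n = 3). DBP, a direct E-box target that is usually among the most rhythmic transcripts, was barely detected. Its counts were 7, 6 and 4 in depleted and 13, 4 and 8 in replete libraries, and the ranges overlap. DBP did not reach the count filter. The ratio of its summed counts per library total was 0.588, with an exact 95% counting interval of 0.298 to 1.13, and with no filter it did not pass (log2 fold change −0.53, edgeR adjusted p = 0.437). The fitted 95% interval with no filter was −1.63 to 0.56 on the log2 scale. DBP exons overlap those of SPHK2 on the other strand, which did not pass (log2 fold change −0.08, edgeR adjusted p = 0.725).

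Of the 10 members, 9 were tested, 8 rose and 1 fell, and the 8 all rose by more than 2-fold. Without PER3, which the filter kept only for its depleted libraries, 7 of 8 rose and 1 fell. Among all genes tested, 78.6% passed in either direction, 39.1% rose and 39.4% fell. A change of more than 2-fold upward was called for 21.8% and downward for 23.7%. A share of called members is therefore read against a background in which most genes were called. The median log2 fold change was 2.19 over the 9 tested members and 2.41 without PER3, beside −0.02 over all genes tested. All depleted libraries were above all replete libraries in CPM for the 8 members that rose, as they were for 33.2% of all genes tested, and below them for CLOCK, as for 47.8%. The 9 tested members kept their direction and their side of the threshold in all 117 alternative values, which came from 13 alternatives each. These alternatives are refits of the same libraries, and 9467 to 11028 genes passed in each of them.

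**Figure D2:**
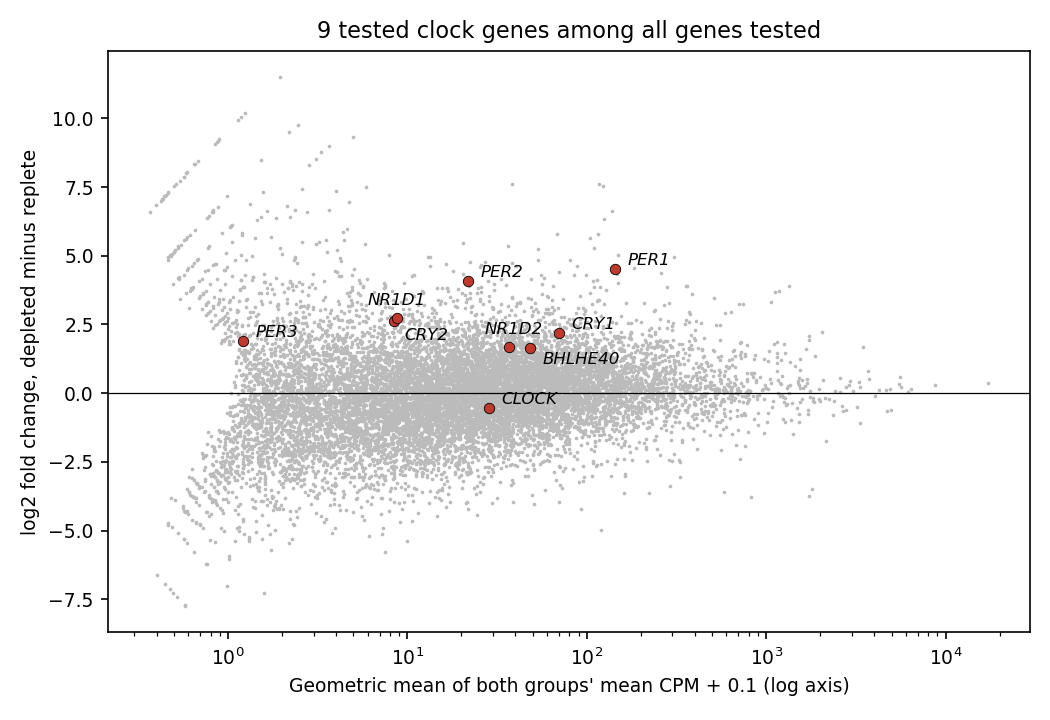
Log2 fold change (depleted minus replete) against the geometric mean of both groups' mean CPM plus 0.1 on a log axis, with all 12739 tested genes in grey and the 9 tested clock genes in red. PER1 and PER2 lie near the upper edge at their level, and CLOCK lies just below 0.

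Ratios of counts within a library do not depend on how libraries are scaled, and 11 pairs were compared with an exact permutation test (two-sided), in which 3 against 3 libraries cannot give a p under 0.1. The groups did not overlap for 10 of the 11 pairs. Each of these had an exact p of 0.1 and a Benjamini-Hochberg adjusted p of 0.11 over the 11 pairs, so no pair could pass. The share over other pairs of genes was not computed. Single genes often separated the groups too, with all depleted libraries above all replete ones for 33.2% of all genes tested and below for 47.8%. The log2 ratio of PER1 to PER2 was higher by 0.44 (SE 0.18) in depleted cells, at 2.78 to 3.14 against 2.25 to 2.76. That of CRY1 to CRY2 was −0.42 (SE 0.09) relative to replete cells, the cryptochrome with fewer counts having changed by the larger factor. The NR1D1 to NR1D2 ratio was higher by 1.05 (SE 0.28), and the ratio of NR1D1 to its overlapping neighbour THRA by 2.15 (SE 0.39). BHLHE40 against its paralog BHLHE41 changed by −1.62 (SE 0.17). The PER1 to PER3 and PER2 to PER3 ratios, which rest on the few PER3 counts, were higher by 2.38 (SE 0.76) and 1.94 (SE 0.85). They were 3.07 and 2.65 without replete replicate 3, and 1.89 and 1.31 without replete replicate 2. CLOCK against NPAS2 changed by −0.41 (SE 0.13), and DBP against its relative TEF by −2.84 (SE 0.58). The DBP to TEF ratio rests on few DBP counts, and its change was −2.28 without replete replicate 1 and −3.12 without replete replicate 3.

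**Figure D3:**
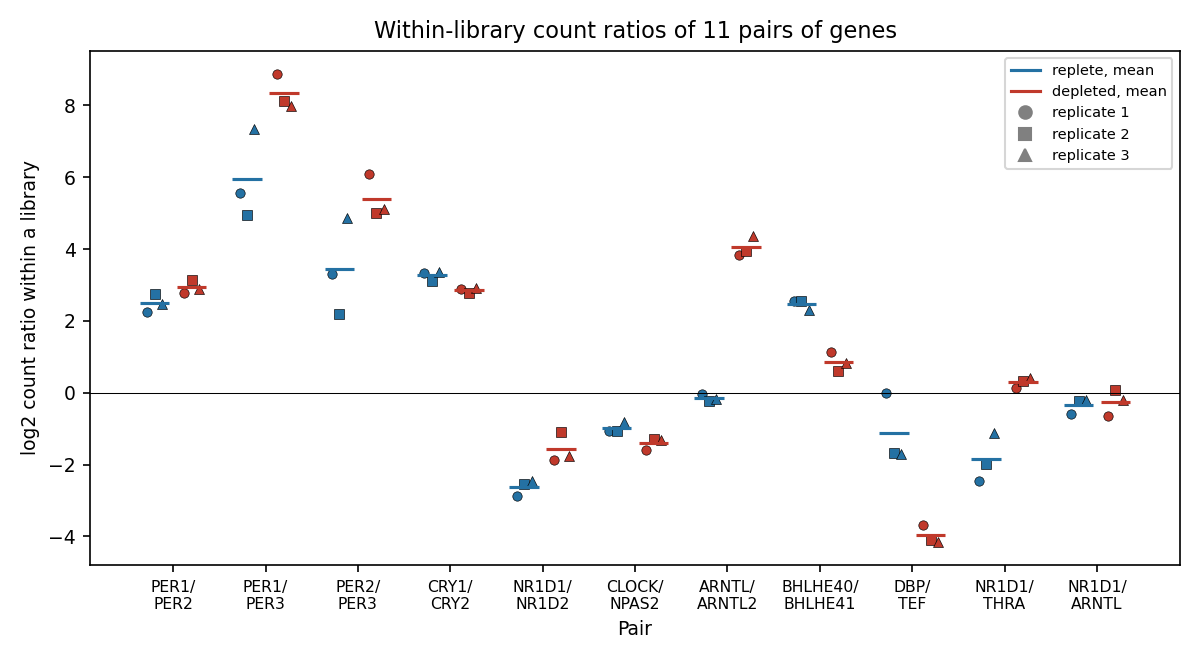
Log2 count ratio within each library for 11 pairs of genes, with 1 point per library (shape gives the replicate number) and a bar for each group mean, replete in blue and depleted in red. The groups overlap only for NR1D1/ARNTL, and ARNTL/ARNTL2 moved the most, with few ARNTL2 counts in the depleted libraries.

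A wider list of 34 clock genes, which includes the 10 members, was compared by role. It too was chosen with earlier results of these data known. Of its 24 other genes, 21 were tested, 13 rose, 4 fell and 4 did not pass, with 10 higher and 4 lower by more than 2-fold and a median log2 fold change of 0.87. Counted in either direction, that share of calls is close to the 78.6% of all tested genes that passed. By direction, 39.1% of all tested genes rose and 39.4% fell, with 21.8% higher and 23.7% lower by more than 2-fold. CIART and HLF, counted among the rises, passed the filter only through depleted libraries. The activator limb was split. ARNTL (BMAL1), the partner of CLOCK, read 29.6, 22.1 and 22.4 CPM in depleted and 4.21, 4.29 and 5.03 CPM in replete libraries, a rise of 2.68 on the log2 scale (edgeR adjusted p = 1.08e-08). Its paralog ARNTL2 fell from 5.02 ± 0.688 to 1.48 ± 0.496 CPM (SD, n = 3; log2 fold change −1.50). ARNTL2 had only 22, 12 and 9 counts in the depleted libraries and passed the filter only through the replete ones. Its exons overlap those of ARNTL2-AS1, also counted, on the other strand by up to 73 bases. The log2 ratio of ARNTL to ARNTL2 moved from −0.15 ± 0.10 to 4.05 ± 0.27 (SD, n = 3). NPAS2, which can stand in for CLOCK, had 57.3 ± 8.14 CPM in depleted and 73.5 ± 3.20 CPM in replete cells (SD, n = 3) and did not pass (log2 fold change −0.13, 95% interval −0.35 to 0.09, edgeR adjusted p = 0.263). It passed with library totals alone (−0.36, adjusted p = 0.00697) and without depleted replicate 1 (−0.24, adjusted p = 0.0388). NR1D1 and ARNTL, repressor and target, rose 6.68-fold and 6.43-fold, and the log2 ratio between them differed by 0.08 (SE 0.24, exact p = 0.9), with overlapping groups.

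The remaining E-box repressors, BHLHE41 and CIART, also rose. PER3 and CIART passed the filter only through their depleted libraries, and without them 6 of 6 of that class rose, beside 39.1% of all genes tested. BHLHE41 (DEC2) rose from 5.28 ± 0.603 to 43.1 ± 3.71 CPM (SD, n = 3), or by 3.26 on the log2 scale. Its exons overlap those of SSPN, also counted, on the other strand by up to 162 bases. CIART (CHRONO), a BMAL1-binding repressor, rose from 0.798 ± 0.376 to 3.95 ± 0.479 CPM (SD, n = 3), with 4, 6 and 9 counts in the replete libraries. RORA, the activator that competes with the REV-ERB proteins, rose by 1.36 from 11.6 ± 2.29 to 25.3 ± 3.63 CPM (SD, n = 3), while RORB had no count in any library. RORA exons overlap those of RORA-AS1, also counted, on the other strand by up to 348 bases.

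Of the D-box factors, NFIL3, TEF and HLF rose, and DBP, low in both groups, did not reach the filter. NFIL3 (E4BP4), the D-box repressor, rose from 9.13 ± 1.20 to 40.1 ± 3.91 CPM (SD, n = 3; log2 fold change 2.37). The activators TEF and HLF, relatives of DBP, rose by 2.41 and 3.34. HLF had only 3, 0 and 5 counts in the replete libraries and passed the filter only through the depleted ones. Its log2 fold change was 4.17 without replete replicate 3 and 2.78 without replete replicate 2.

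**Figure D4:**
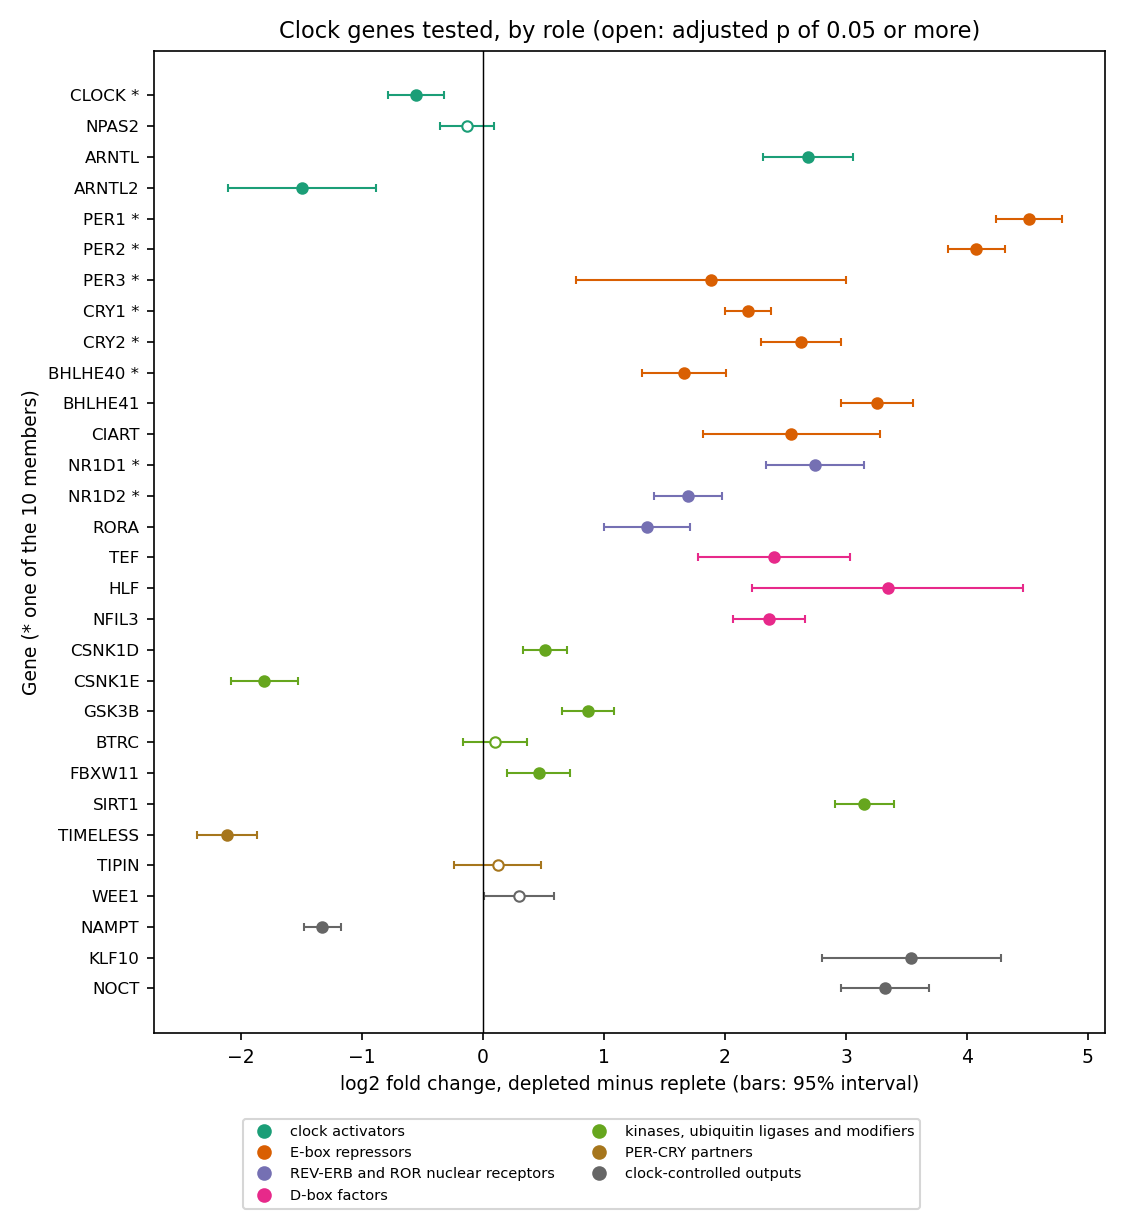
Log2 fold change (depleted minus replete) with its 95% interval for the 30 tested genes of the wider clock list, coloured by role, with the members marked by an asterisk and open points for genes that did not pass. The E-box repressors lie to the right of 0, PER3 and CIART having passed the filter only through depleted libraries. The activators lie on either side of 0, ARNTL2 having passed the filter only through replete libraries.

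Enzymes that modify the clock proteins moved in both directions, with 4 of 6 tested genes higher and 1 lower. Counted in either direction, that share of calls is close to the 78.6% over all genes tested. By direction, 39.1% of all genes tested rose and 39.4% fell. SIRT1, an NAD-dependent deacetylase that acts on PER2 and BMAL1, rose from 17.7 ± 2.68 to 134 ± 6.36 CPM (SD, n = 3; log2 fold change 3.15, edgeR adjusted p = 5.10e-11). The casein kinase CSNK1E, which marks PER proteins for degradation, fell from 46.9 ± 2.44 to 11.4 ± 1.96 CPM (SD, n = 3; −1.81), whereas its paralog CSNK1D rose by 0.51. CSNK1D exons overlap those of SLC16A3 on the other strand. GSK3B rose by 0.87, and the ubiquitin ligase gene FBXW11 rose by 0.46, but it did not pass with library totals alone (edgeR adjusted p = 0.0950). BTRC, the paralog of FBXW11, did not pass (log2 fold change 0.10, 95% interval −0.16 to 0.36). TIMELESS, a replication fork protein that binds CRY proteins, fell from 89.4 ± 0.645 to 17.6 ± 2.83 CPM (SD, n = 3; −2.12), and its partner TIPIN did not pass (0.12, 95% interval −0.24 to 0.48).

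Genes commonly described as clock outputs did not share a direction. NOCT (nocturnin), a rhythmic NADP phosphatase, rose from 3.08 ± 0.385 to 26.3 ± 2.77 CPM (SD, n = 3; log2 fold change 3.32). KLF10, a zinc finger factor that also answers to TGF-β, rose by 3.54 to 379, 189 and 297 CPM in the depleted libraries, from 27.7 to 31.5 CPM in the replete libraries. NAMPT, the rate-limiting enzyme of NAD salvage, fell from 1198 ± 24.5 to 408 ± 38.6 CPM (SD, n = 3; −1.33, edgeR adjusted p = 2.04e-09). WEE1, the kinase that restrains mitotic entry, did not pass (0.30, 95% interval 0.01 to 0.58, edgeR adjusted p = 0.0552), but it passed without depleted replicate 2 (adjusted p = 0.00234) and with DESeq2 size factors (0.0427).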

How the data were processed

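Each deposited file gives the raw counts of 1 library by gene symbol, and these were used as the authors deposited them. Per the submitters' processing notes, Bowtie2, edgeR and hg19 are named, with neither their role nor a version. The read counter, any strand setting and the gene models are not given in the sources used here. Per the labels' protocols, 500 ng of TRIzol-extracted total RNA entered a Lexogen QuantSeq 3′ library. Counts of symbols on several entries were summed, and no member had several.

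Genes were kept by filterByExpr (minimum count 10, minimum total 15), scaled by TMM factors (0.917 to 0.929 in depleted, 1.08 to 1.09 in replete libraries) and tested across all 12739 genes kept, in all 6 libraries, with edgeR 4.0.16's quasi-likelihood F-test, fitted robustly (R 4.3.3), two-sided, with Benjamini-Hochberg adjustment and a threshold of 0.05. The SE is the log2 fold change over the square root of F. The procedure was tested on simulated data in which few genes changed and all had the same added spread between libraries. It was not tested where most genes change or where a library stands apart. Ratios used log2 of counts plus 0.5. Alternatives used DESeq2 1.42.0, limma 3.58.1 and other settings. GENCODE 29 (GRCh38) served only for exon overlaps and RefSeq GRCh38.p14 for promoters, since no position comes with the counts.

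The members and lists were chosen with earlier results of these data known. Named genes were the members, genes in ratios, genes with overlapping exons, and up to 3 other list genes per role that passed with more than a 2-fold change. The remaining list genes, the markers and the motifs were named or chosen after values were seen. Some genes of the wider list are not reported here.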

Additional observations from a re-analysis of the deposited data

How the results depend on the processing

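The 9 tested clock genes kept their call under DESeq2 size factors, library totals alone, no count filter, DESeq2, limma-voom, the largest entry per symbol, the replicate block and leaving out each library, with 8 higher and 1 lower each time. Beside them, 39.1% of all genes tested rose and 39.4% fell in the main fit, and 9467 to 11028 genes passed in each refit. PER3, among the 8, passed the filter only through its depleted libraries. Of the 21 other tested clock genes, 16 kept both their call and their direction. With library totals alone, the log2 fold change of the median gene shifted by −0.23, and the share of calls that were higher from 49.8% to 41.1%. It turned the log2 fold changes of BTRC (−0.13) and TIPIN (−0.11), neither of which passed. When each library was left out in turn, values that did not pass also turned. BTRC ran from −0.020 to 0.18 and SPHK2 from −0.19 to 0.021, and the NR1D1 to ARNTL log2 ratio difference from −0.091 to 0.27. They turned without replete replicate 2 (BTRC), without depleted or replete replicate 1 (SPHK2), and without depleted replicate 2 or replete replicate 1 (the ratio). For these the cause was not tested. Same-numbered libraries deviated from their group means with correlations of 0.15, 0.02 and 0.03 over 11527 genes. Differently numbered libraries gave −0.11 to 0.06. Correlations this weak cannot show whether the numbers mark pairs, and the labels do not say. With the replicate block, the 24 other list genes had 13 higher and 4 lower calls, as without it. In the main fit, CIART and HLF among the higher passed the filter only through depleted libraries, and ARNTL2 among the lower only through replete ones. Low counts limit PER3, DBP, HLF, CIART and ARNTL2.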

Other observations

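The clock genes differed in how much they varied among the 3 depleted libraries. The coefficient of variation of CPM was 1.52% for PER2, 2.37% for CRY2 and 2.83% for CRY1, but 17.0% for NR1D2 and 24.5% for BHLHE40, against 4.83%, 3.47%, 8.02%, 8.16% and 3.30% in the replete libraries. In both groups PER2 and CRY2 varied less than counting error alone would be expected to give. CRY2 had 207, 170 and 161 counts in the depleted and 33, 29 and 26 in the replete libraries. Their low values over 3 libraries are therefore not read as a trait of these genes. PER3, with few counts, stood at 35.6% in depleted and 83.0% in replete libraries. DBP, also with few counts and not tested, lay between NR1D2 and BHLHE40 in depleted libraries and stood at 46.9% in replete libraries. BHLHE40, NR1D2 and KLF10 were lowest in depleted replicate 2, the library that stood apart, whereas PER1 and NR1D1 were highest there. Over the 9 tested members, depleted replicate 2 was the lowest of its group for 4 and the highest for 4. Without that library the log2 fold changes were 1.84 for BHLHE40, 1.83 for NR1D2, 3.77 for KLF10, 4.41 for PER1 and 2.65 for NR1D1. These genes were picked after their values were seen, and the difference in spread was not tested.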
